A study of Homo sapiens with 6 samples.

Results

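The genes described here are 39 actin, myosin and serum response factor (SRF)-linked contractile genes, measured by RNA-seq at day 2 of hematopoietic differentiation of H1, an established line of human embryonic stem cells. They were picked by symbol, out of 37803 symbols found once in both deposited tables, with the values of the SNAI1 knockout libraries and the wild-type libraries in view. Their differences between knockout and wild type are therefore a description. It is said which of the 39 passed the threshold of a fit over all genes, but no p-value of theirs is given for this contrast and nothing rests on it. Genes of other lists are given with p-values of this contrast, although these lists were also written with earlier results known. The WT cells (n = 2), the cells labelled SNAI1_KO_1 (n = 2) and the cells labelled SNAI1_KO_2 (n = 2) were all H1 cells kept for 2 days in medium with added activin A (40 ng/ml) and BMP4 (50 ng/ml), and 2 ug of total RNA went into each library. The study's methods give these doses the other way round. SNAI1 was deleted by CRISPR/Cas9, and per the study each gene was knocked out in a pair of lines that carry frameshift mutations. What the leading number of the sample titles stands for is not given, so SNAI1_KO_1 and SNAI1_KO_2 were treated as separate groups. Whether the libraries of a group came from separate cultures is not given either, and p-values then measure only the spread between these libraries, which may be technical.

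Actin filaments are built from 6 closely related actins, 2 of them present in most cells (ACTB and ACTG1) and 4 named for skeletal, cardiac and smooth muscle (ACTA1, ACTC1, ACTA2 and ACTG2). Myosin II, made of heavy and light chains, slides along these filaments, while tropomyosins, calponins and caldesmon lie on them and actinins and filamins tie them together. Many of these genes are known targets of SRF, a transcription factor that binds the CArG box together with myocardin or the related MRTF cofactors, and the MRTF cofactors respond to the amount of free actin. SNAI1 encodes a zinc-finger repressor that is known for its part in epithelial-to-mesenchymal transition, in which cells rebuild their actin cytoskeleton.

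The expression of SNAI1 was 37.1 and 36.4 in WT, 51.6 and 47.8 in SNAI1_KO_1 and 68.6 and 55.0 in SNAI1_KO_2, in FPKM (fragments per length of transcript, scaled to the mapped total). Here and below the first value of each pair is from the first table and the second from the second table. SNAI1 mRNA was thus higher in every library labelled knockout than in WT (log2 difference 0.58 ± 0.074, limma, adjusted p = 0.00461), and the adjusted p was 0.0502 when the first table's WT library was left out. A frameshift need not lower the mRNA, so this level does not check the labels, and directions are given as the labels name the libraries. FPKM summed to between 603399 and 633851 per library, with 13553 to 14063 symbols at 1 FPKM or more. The depth of sequencing is unknown.

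To show the SRF-binding sequence of these genes, RefSeq promoter windows (build GRCh38.p14, 250 bases before to 50 bases after each annotated start) were searched for the CArG box, written as CC, then 6 letters that are each A or T, then GG, which reads the same way on either strand. A window was found for 34 of the 39 genes. It was not found for ACTB, TAGLN, MYL9, MYH11 and TGM2. The box was present in 12 of the 34 genes (35.3%), against 438 of 27305 genes with a window (1.6%). Several of the 34 genes had more than 1 window. Counted by window, the box was in 14 of 71 (19.7%), against 454 of 35116 (1.29%). The 12 genes were ACTA1, ACTC1, ACTG1, ACTG2, MYL7, ACTN1, FLNA, CNN2, TPM4, FHL1, FHL2 and SRF itself. Many of these genes are textbook SRF targets, so the share describes the kind of gene chosen and not the libraries.

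The 120 bases before the start are shown for 7 genes, the 3 muscle actins whose levels differed most between the groups, 1 cytoplasmic actin, 1 myosin light chain, 1 calponin and SRF, to let the boxes be compared. Capitals mark CArG boxes. In ACTA1 they also mark 2 copies of GGAATG, a motif known to be bound by TEAD factors, the first of them on the opposite strand. The regions are chr1:229434095-229434214, minus strand for ACTA1, chr15:34795550-34795669, minus strand for ACTC1, chr2:73892888-73893007, plus strand for ACTG2, chr17:81512800-81512919, minus strand for ACTG1, chr7:44141333-44141452, minus strand for MYL7, chr19:1026488-1026607, plus strand for CNN2 and chr6:43171149-43171268, plus strand for SRF.
ACTA1: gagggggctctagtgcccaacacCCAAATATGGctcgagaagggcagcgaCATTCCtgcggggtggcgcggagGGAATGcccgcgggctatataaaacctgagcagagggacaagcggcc
ACTC1: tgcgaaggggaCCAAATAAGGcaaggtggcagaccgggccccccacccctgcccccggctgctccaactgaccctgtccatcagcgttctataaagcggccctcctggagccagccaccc
ACTG2: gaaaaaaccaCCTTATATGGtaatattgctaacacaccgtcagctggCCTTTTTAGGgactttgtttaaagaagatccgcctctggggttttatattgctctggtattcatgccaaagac
ACTG1: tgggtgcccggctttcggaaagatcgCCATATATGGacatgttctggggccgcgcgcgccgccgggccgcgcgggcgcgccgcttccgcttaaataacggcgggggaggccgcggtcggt
MYL7: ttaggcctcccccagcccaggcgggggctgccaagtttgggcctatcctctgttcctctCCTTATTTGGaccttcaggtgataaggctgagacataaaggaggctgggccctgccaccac
CNN2: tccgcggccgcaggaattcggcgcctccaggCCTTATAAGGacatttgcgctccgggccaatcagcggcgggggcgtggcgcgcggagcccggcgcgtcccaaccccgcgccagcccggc
SRF: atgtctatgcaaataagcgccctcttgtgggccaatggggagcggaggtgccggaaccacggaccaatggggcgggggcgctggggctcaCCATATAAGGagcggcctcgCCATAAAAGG

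ACTG2 and SRF each carried 2 boxes, and the others shown carried 1. The first base of the box lay 97 bases before the start in ACTA1, 109 in ACTC1, 94 in ACTG1 and in FLNA, 89 in CNN2 and 61 in MYL7. In SRF, the boxes were nearest to the start, at 30 and 10 bases. The motif GGAATG was searched on both strands as well and was found in 16 of the 34 genes (47.1%, against 16.7% of all genes with a window), or in 17 of the 71 windows (23.9%, against 14%). The E-box CAGGTG, the core of the sequence that SNAI1 is known to bind, was found in 9 of the 34 genes (26.5%, against 24.1%) and in 10 of the 71 windows (14.1%, against 20.6%). A match to a motif says only that these letters are in the window. Binding was not measured here.

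**Figure D1:**
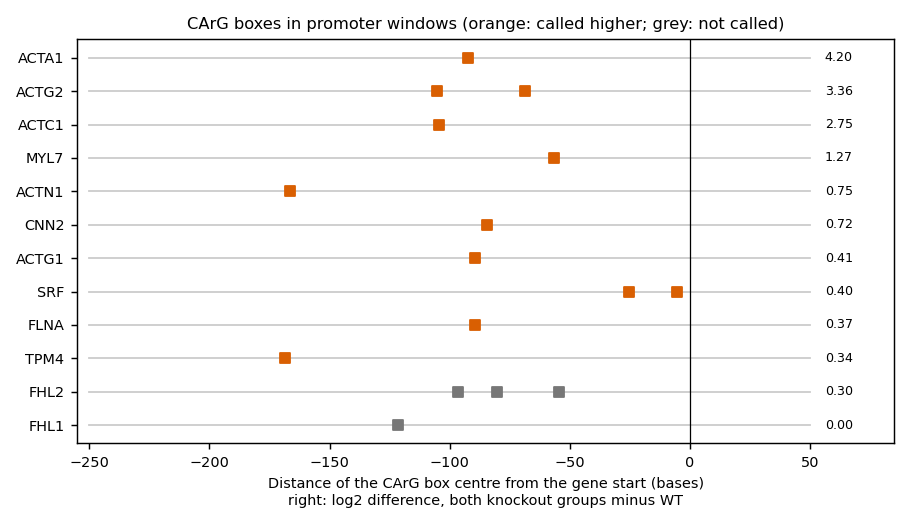
Position of each CArG box in the promoter windows of 12 genes, as the distance of its centre from the annotated start in bases (horizontal axis), with the log2 difference between both knockout groups and WT at the right. Orange squares are genes past the threshold of the limma fit and grey squares are genes that were not, and the 3 muscle actins at the top have a box about 60 to 110 bases before the start. The first pair of squares of FHL2 is 1 box seen from 2 starts.

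Levels were compared on the scale of log2(FPKM + 1), which understates the difference of genes at low FPKM. The log2 difference is the mean of both knockout groups minus WT, with the table as a block, and ± gives its standard error from limma over all 6 libraries. Of the 39 genes, 36 had a mean of at least 1 FPKM over the 6 libraries and were in the fit, and ACTN2, MYH11 and TGM2 were not. Of the 36, 27 passed the threshold with higher values in the knockout groups and 0 with lower values, while 31.3% of the 13909 genes in the fit passed it in either direction, 15.8% with higher and 15.4% with lower values. For each knockout group on its own against WT, 26 were past the threshold in SNAI1_KO_1 (23.9% of all genes, 13% higher and 10.9% lower) and 26 in SNAI1_KO_2 (25.5% of all genes, 13.5% higher and 12% lower). Both groups share the WT libraries. Because the genes were picked on this contrast, nothing is read from these counts. With no table term, 12 of the 36 were past the threshold, against 7.66% of all genes. With no filter on low values 7 were, against 1.94% of all 37803 genes.

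The median log2 difference of the 36 genes was 0.55, against -0.05 for all genes in the fit. In the first table it was 0.55 (SNAI1_KO_1) and 0.52 (SNAI1_KO_2), and in the second 0.46 and 0.58. All 4 knockout libraries lay above both WT libraries for 28 of the 39 genes (16.9% of all genes in the fit) and below both for 0 (17.1%), and they overlapped with WT for 11. Set against the WT library of the same table, 32 of the 39 were higher in all 4 differences (26.2% of all genes in the fit). Only MYH10 of the 39 was lower in all 4 (35.1%), and ACTA2, TPM2, CFL1, PFN1, FHL1 and TGM2 were mixed. Summed over the 39 genes, FPKM was 12076 to 13166 in the WT libraries and 17648 to 19011 in the knockout libraries, which is 1.91% to 2.19% and 2.79% to 3.16% of all FPKM. In bulk RNA, a change in the share of cells that express a gene and a change in its RNA per cell cannot be told apart.

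**Figure D2:**
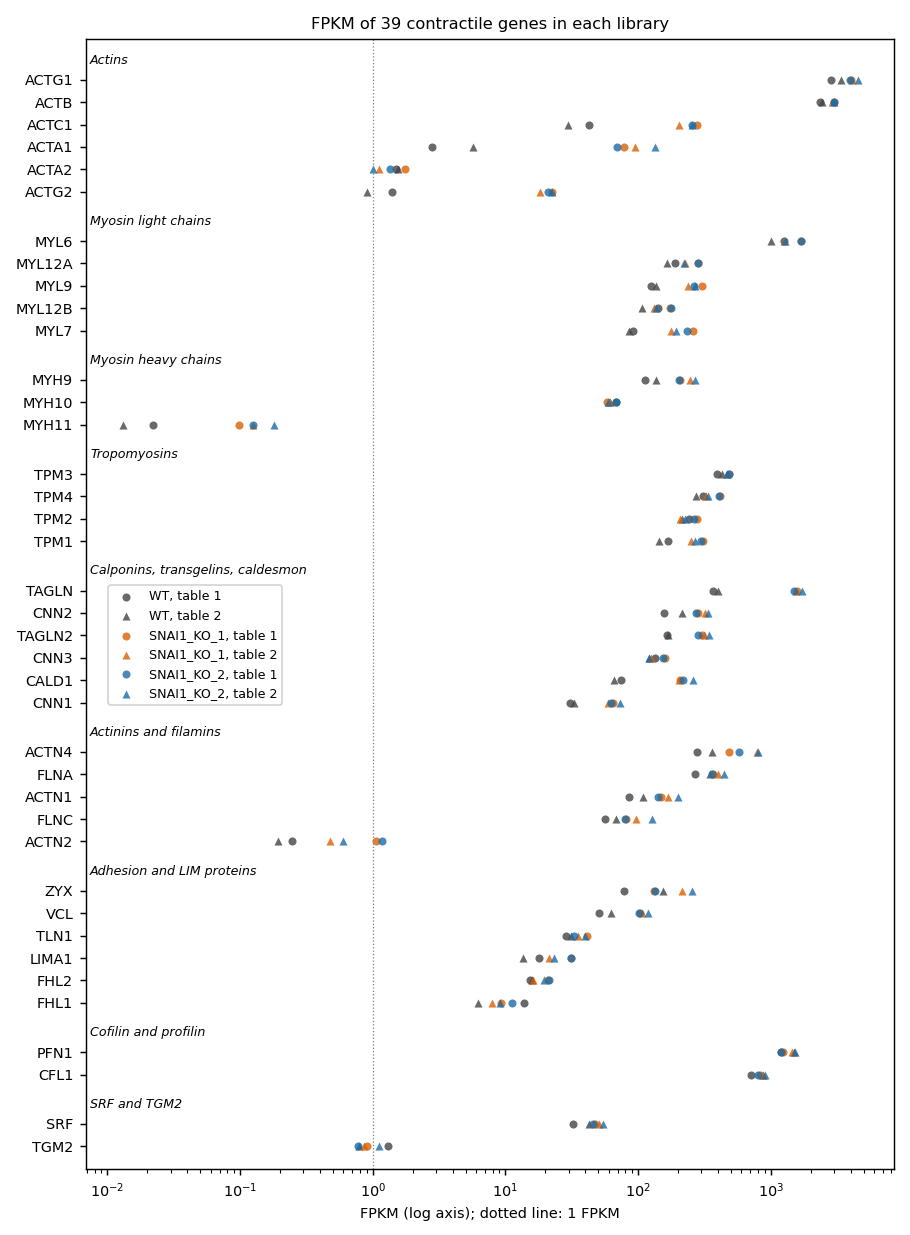
FPKM of the 39 genes in each of the 6 libraries, on a log axis, grouped by role. Grey marks are WT, orange SNAI1_KO_1 and blue SNAI1_KO_2, with circles for the first table and triangles for the second. ACTA1, ACTC1, ACTG2 and TAGLN show a gap between grey and coloured marks, while PFN1, CFL1, TPM2 and MYH10 do not.

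The actins held both the highest and the lowest log2 difference of the 36 genes. ACTA1, the actin of skeletal muscle, was 2.81 and 5.67 in WT, 78.5 and 95.5 in SNAI1_KO_1 and 68.9 and 135 in SNAI1_KO_2. Even the lowest knockout value was more than 10 times the highest WT value, and the ratios to WT of the same table were 27.9, 24.5, 16.9 and 23.8 (SNAI1_KO_1 and SNAI1_KO_2 in the first table, then in the second). The log2 difference was 4.20 ± 0.14. The WT libraries themselves differed between the tables.

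ACTG2, the actin of enteric smooth muscle, was 1.40 and 0.905 in WT, 22.6 and 18.2 in SNAI1_KO_1 and 21.0 and 22.5 in SNAI1_KO_2 (log2 difference 3.36 ± 0.12). It was near 1 FPKM in both WT libraries, and the ratios were 16.2, 15.0, 20.2 and 24.9 in the same order. ACTC1, the cardiac actin, already had a clear level in WT, and its FPKM was 42.9 and 29.7 in WT, 278 and 202 in SNAI1_KO_1 and 256 and 255 in SNAI1_KO_2. The groups did not overlap, with ratios of 6.49, 5.97, 6.80 and 8.59 and a log2 difference of 2.75 ± 0.11. ACTA2, the vascular smooth muscle actin and the best-known marker of myofibroblasts, stood apart from the other muscle actins. Its FPKM was 1.496 and 1.55 in WT, 1.75 and 1.12 in SNAI1_KO_1 and 1.35 and 1.002 in SNAI1_KO_2, so that the groups overlapped, and the log2 difference was -0.14 ± 0.16, which did not pass the threshold.

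The cytoplasmic actins were the most abundant of the 39 genes. ACTB was 2331 and 2422 in WT, 3011 and 2882 in SNAI1_KO_1 and 3004 and 2998 in SNAI1_KO_2, and ACTG1 was 2849.8 and 3368 in WT, 4003 and 4099 in SNAI1_KO_1 and 3922 and 4509.6 in SNAI1_KO_2. All knockout libraries were above both WT libraries for each, by log2 differences of 0.32 ± 0.035 and 0.41 ± 0.049. The 6 actins together came to 5229 to 5827 FPKM in WT and to 7273 to 7921 FPKM in the knockout libraries. The 4 muscle actins took 37.8 to 48.6 FPKM of this in WT and 317 to 414 FPKM in the knockout libraries. Among the muscle actins, ACTC1 made up 78.5% to 88.2% in WT and 61.7% to 73.7% in the knockout libraries, while ACTA1 went from 5.80% to 15.0% in WT to between 19.9% and 32.6%. The actins are nearly identical in coding sequence and have many pseudogenes, so fragments may be split between them, and their shares are uncertain to that extent.

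The light chains of myosin carry the phosphorylation site that switches non-muscle and smooth muscle myosin on (MYL9, MYL12A and MYL12B) or form its essential subunit (MYL6). MYL7, the atrial regulatory light chain, was 90.9 and 84.8 in WT, 260.3 and 176 in SNAI1_KO_1 and 235 and 194 in SNAI1_KO_2. MYL9, the smooth muscle form, was 126 and 136 in WT, 300.4 and 239 in SNAI1_KO_1 and 265 and 269 in SNAI1_KO_2. Neither gene overlapped between the groups, and the log2 differences were 1.27 ± 0.10 and 1.03 ± 0.094. The general forms differed less. MYL12A was 191 and 165 in WT, 280.2 and 227 in SNAI1_KO_1 and 281 and 222 in SNAI1_KO_2 (log2 difference 0.50 ± 0.045). MYL12B (0.33 ± 0.041) and MYL6 (0.38 ± 0.035) were above WT within each table, but their ranges overlapped across the tables, with 141 and 106 in WT and 132 to 177 in the knockout groups for MYL12B and 1263 and 999 in WT and 1246 to 1684 in the knockout groups for MYL6. Of the summed regulatory light chains, MYL7 made up 16.6% to 17.3% in WT and 22.8% to 25.6% in the knockout libraries, and MYL12A 33.6% to 34.8% and 26.99% to 29.3%. MYL12A and MYL12B are close copies, and their values may share fragments.

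The heavy chains form the motor of myosin II. MYH9 (myosin IIA) was 112 and 136 in WT, 208 and 247 in SNAI1_KO_1 and 204 and 268 in SNAI1_KO_2, and all knockout libraries were above WT (log2 difference 0.90 ± 0.048). MYH10 (myosin IIB) was 68.3 and 61.6 in WT, 57.8 and 60.7 in SNAI1_KO_1 and 67.9 and 59.5 in SNAI1_KO_2. This was the only one of the 39 genes that was below WT in all 4 differences within the tables, but the groups overlapped and the log2 difference of -0.078 ± 0.070 did not pass the threshold. MYH9 made up 62.1% to 68.8% of the summed heavy chains in WT and 75.0% to 81.8% in the knockout libraries. MYH11, the heavy chain of differentiated smooth muscle, was close to 0 throughout, with 0.0219 and 0.0130 in WT and 0.0989 to 0.182 in the knockout groups, and was not in the fit.

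Among the tropomyosins, which set where myosin can reach the filament, only TPM1 differed by more than 0.5 on the log2 scale. TPM1 was 169 and 143 in WT, 310.1 and 251 in SNAI1_KO_1 and 299 and 268 in SNAI1_KO_2, with no overlap and a log2 difference of 0.85 ± 0.046. TPM4 was 309.6 and 274 in WT and 325 to 414 in the knockout groups (0.34 ± 0.048), and TPM3 was 390.2 and 432 in WT and 465 to 488 in the knockout groups (0.21 ± 0.057). The call of TPM3 was lost in 10 of the alternatives tried. TPM2 overlapped between the groups, with 241 and 215 in WT and 208 to 277 in the knockout groups and a log2 difference of 0.087 ± 0.061. The share of TPM1 in the summed tropomyosins was 13.4% to 15.2% in WT and 20.1% to 20.8% in the knockout libraries, and that of TPM2 20.2% to 21.7% and 16.7% to 18.6%.

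**Figure D3:**
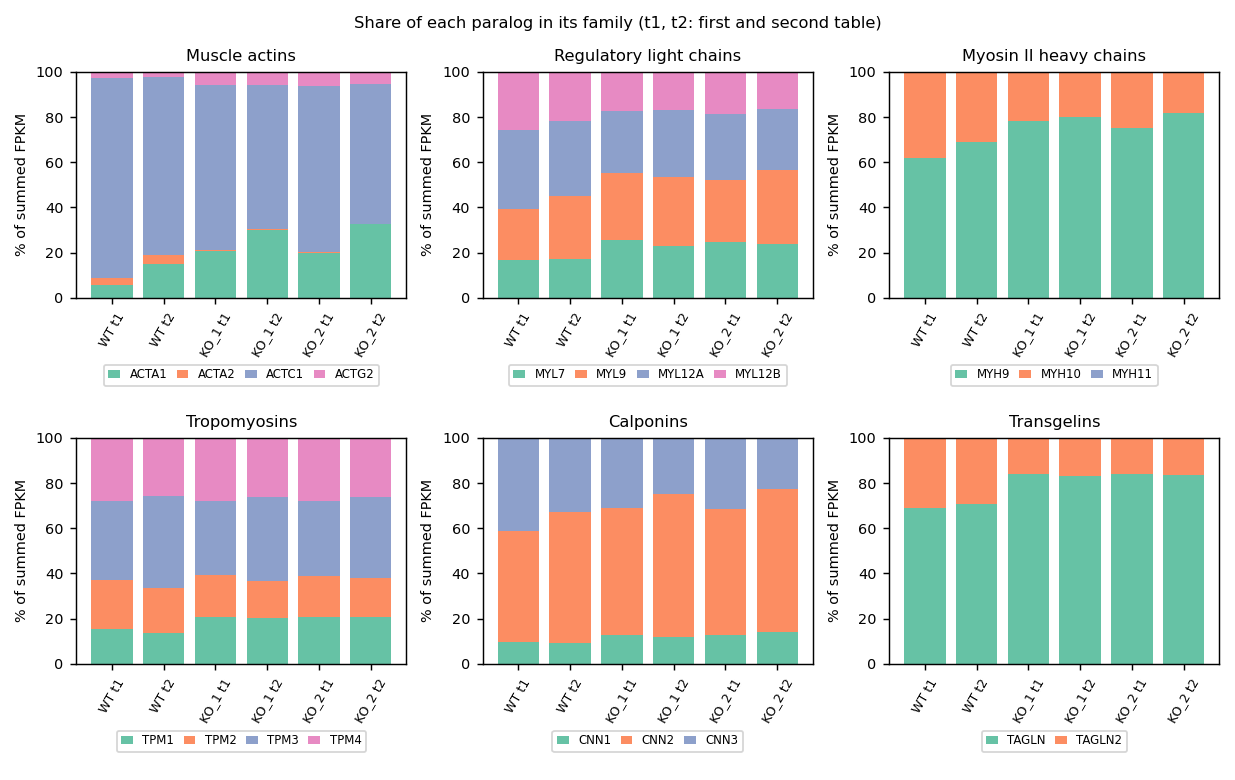
Share of each paralog in the summed FPKM of its family, in percent, for each library (t1 and t2 are the first and the second table). ACTA1 takes a larger part of the muscle actins in the knockout libraries (19.9% to 32.6%) than in WT (5.80% to 15.0%), as do MYH9 among the heavy chains, TPM1 among the tropomyosins and TAGLN among the transgelins. MYH11 is too low to be seen.

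TAGLN, or transgelin, an actin-binding protein of smooth muscle and a classical SRF target, was 363 and 402 in WT, 1576 and 1559 in SNAI1_KO_1 and 1495 and 1723 in SNAI1_KO_2. The ratios of 4.34, 4.11, 3.88 and 4.28 were alike in all 4 differences, and the log2 difference was 2.05 ± 0.053. CALD1, or caldesmon, which holds back myosin on actin, was 73.8 and 65.4 in WT, 206 and 204 in SNAI1_KO_1 and 217 and 259.8 in SNAI1_KO_2 (1.65 ± 0.091). CNN1, the calponin of smooth muscle, was 30.9 and 32.8 in WT, 64.6 and 58.9 in SNAI1_KO_1 and 62.8 and 73.2 in SNAI1_KO_2, which gave a log2 difference from WT of 0.93 ± 0.10 for SNAI1_KO_1 and 1.07 ± 0.10 for SNAI1_KO_2. For each of these genes every knockout library was above every WT library.

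The broadly expressed relatives differed less from WT. TAGLN2 was 164 and 167 in WT and 283 to 342 in the knockout groups (0.90 ± 0.063), and CNN2 was 157 and 212 in WT and 271 to 335 in the knockout groups (0.72 ± 0.059). CNN3 was above WT within each table by at most 0.25, but overlapped across them, with 133 and 119.9 in WT and 121 to 158 in the knockout groups (0.13 ± 0.058, not past the threshold). TAGLN made up 69.0% to 70.7% of the transgelins in WT and 83.3% to 84.1% in the knockout libraries, and CNN1 8.99% to 9.62% and 11.6% to 13.8% of the calponins.

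Actinins and filamins bundle and cross-link filaments. ACTN4, a non-muscle actinin, was 279 and 363 in WT, 482 and 786 in SNAI1_KO_1 and 579 and 796 in SNAI1_KO_2 (log2 difference 1.02 ± 0.071). ACTN1 was 85.1 and 108 in WT and 141 to 199 in the knockout groups (0.75 ± 0.071). FLNC, the filamin of striated muscle, was 56.4 and 67.5 in WT, 81.6 and 96.5 in SNAI1_KO_1 and 79.3 and 128 in SNAI1_KO_2 (0.61 ± 0.10), and its highest value was in the SNAI1_KO_2 library of the second table. FLNA, the general filamin, was 267 and 346 in WT and 361 to 446 in the knockout groups (0.37 ± 0.061). None of these overlapped between the groups. ACTN2, the actinin of the sarcomere Z-disc, was 0.246 and 0.193 in WT, 1.07 and 0.474 in SNAI1_KO_1 and 1.17 and 0.593 in SNAI1_KO_2, which was above WT in each library but below the level needed for the fit.

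At adhesion sites, VCL (vinculin), which links talin to actin, was 50.3 and 62.4 in WT, 103 and 107 in SNAI1_KO_1 and 101 and 118 in SNAI1_KO_2, without overlap (log2 difference 0.92 ± 0.066). LIMA1, an actin-bundling LIM protein, was 18.0 and 13.5 in WT, 31.4 and 21.2 in SNAI1_KO_1 and 31.4 and 23.2 in SNAI1_KO_2 (0.72 ± 0.069). ZYX (zyxin), a LIM protein of stressed filaments, was 78.6 and 154 in WT, 133 and 212 in SNAI1_KO_1 and 134 and 252 in SNAI1_KO_2 (0.67 ± 0.070), where WT of the second table was above the knockout libraries of the first, so that the difference was seen only within the tables. TLN1 (talin), which activates integrins, was 28.6 and 31.2 in WT and 32.7 to 41.0 in the knockout groups (0.30 ± 0.11), and FHL2, a LIM-only cofactor, was 15.3 and 15.8 in WT and 16.3 to 21.3 in the knockout groups (0.30 ± 0.10). Both lay above WT in all knockout libraries, but neither passed the threshold. FHL1, which is abundant in striated muscle, was 13.7 and 6.19 in WT, 9.27 and 7.92 in SNAI1_KO_1 and 11.1 and 9.15 in SNAI1_KO_2. It was below WT in the first table and above it in the second, and the log2 difference was 0.0015 ± 0.19.

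Genes of filament turnover had the smallest median log2 difference of the 9 classes of role (0.06). CFL1 (cofilin), which severs filaments, was 714 and 869.7 in WT, 827 and 866 in SNAI1_KO_1 and 795 and 903 in SNAI1_KO_2 (0.10 ± 0.051). PFN1 (profilin), which loads actin monomers for growth, was 1184 and 1506 in WT, 1227 and 1448 in SNAI1_KO_1 and 1200.1 and 1518 in SNAI1_KO_2 (0.0067 ± 0.037). Both were among the most abundant of the 39 genes, their groups overlapped, and neither passed the threshold. PFN1 has many pseudogenes.

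SRF itself was 32.1 and 42.9 in WT, 47.4 and 50.3 in SNAI1_KO_1 and 45.4 and 54.6 in SNAI1_KO_2. All knockout libraries were above both WT libraries, and the log2 difference was 0.40 ± 0.079. The SRF call was lost in 6 of the alternatives, also when the first table's WT library was left out, where the difference was 0.28. TGM2, a transglutaminase that cross-links proteins, was near 1 FPKM, with 1.31 and 0.787 in WT, 0.905 and 0.859 in SNAI1_KO_1 and 0.780 and 1.12 in SNAI1_KO_2. It was below WT in the first table and above it in the second.

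**Figure D4:**
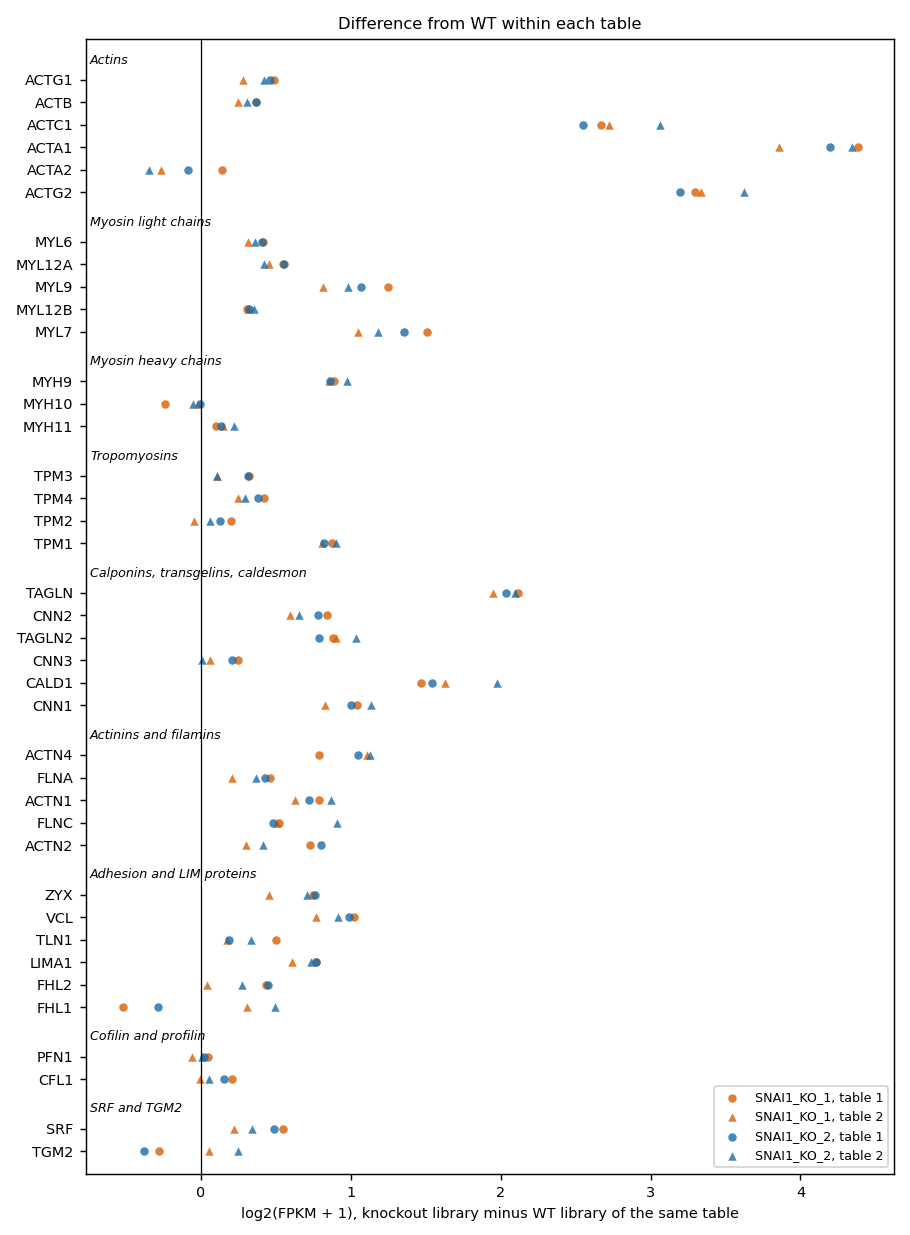
Difference in log2(FPKM + 1) between each knockout library and the WT library of the same table, for the 39 genes by role. Orange marks are SNAI1_KO_1 and blue SNAI1_KO_2, with circles for the first table and triangles for the second, and the vertical line is 0. ACTA1, ACTG2, ACTC1, TAGLN and CALD1 lie farthest to the right, MYH10 lies at or left of 0, and FHL1 lies on both sides.

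Grouped by the tissue they are named for, 11 of the 39 genes belong to muscle forms (ACTA1, ACTA2, ACTC1, ACTG2, ACTN2, FLNC, CNN1, TAGLN, MYL7, MYL9 and MYH11). Of the 9 of them in the fit, 8 were past the threshold with higher values, and the median log2 difference was 1.27. Among all genes in the fit, 15.8% were past it with higher values, and the median was -0.05. Of the 28 other genes, 27 were in the fit, 19 were past the threshold with higher values, and the median was 0.38. This grouping was made with earlier results known, and the medians depend on it. FHL1, abundant in striated muscle, was counted with the others (log2 difference 0.0015, not past the threshold), and so was CALD1 (1.65). Among the 24 genes with a promoter window that were past the threshold, 10 had a CArG box (41.7%), and among the 9 with a window that were not past it, 2 did (22.2%, FHL1 and FHL2). These shares rest on few genes, split by the contrast on which the genes were picked. A difference between the shares was not tested, and nothing is read from it. The motif GGAATG was in 10 of those 24 (41.7%) and in 6 of those 9 (66.7%), and the E-box CAGGTG in 6 (25%) and 3 (33.3%). The 24 genes had 44 windows and the 9 genes had 26. Counted by window, the shares were 22.7% and 15.4% for the CArG box. They were 25% and 23.1% for GGAATG, and 15.9% and 11.5% for CAGGTG, so the lower shares by gene were not seen by window.

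The contrast between the knockout groups was not itself used to pick the genes. They were picked with each knockout group against WT in view, which may favour genes that were alike in both groups. The values of this contrast are therefore a description as well. For SNAI1_KO_2 against SNAI1_KO_1, 0 of the 36 genes and 0 of all 13909 passed the threshold (limma). At an unadjusted p under 0.05 it was 0 of the 36, against 521 of all genes (3.75%). The smallest unadjusted p of the 36 was 0.0978, for CALD1, and every adjusted p was at least 0.9996. The differences ran from -0.15 for ACTA2 to 0.21 for FHL1, on the log2 scale, with a median standard error of 0.078. For ACTA1, the difference was 0.15 (95% interval -0.27 to 0.57), for ACTC1 0.11 (95% interval -0.22 to 0.44), for TAGLN 0.034 (95% interval -0.12 to 0.19) and for CALD1 0.21 (95% interval -0.054 to 0.47). With 2 libraries a group, differences within these intervals are not excluded. The intervals are not corrected for the 13909 genes in the fit.

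Other genes of the actin cytoskeleton were set beside the 39. These lists were written by gene function, with earlier results of the data known, and hold 135 other genes, of which 134 were listed in both tables and 112 were in the fit. Both knockout groups against WT, 49 of the 112 passed the threshold with higher values (limma, 15.8% of all genes) and 12 with lower values (15.4%), and the median log2 difference was 0.17 against -0.05 for all genes. With no table term, 24 passed (7.66% of all genes), and with no filter on low values 14 (1.94% of all genes). For SNAI1_KO_2 against SNAI1_KO_1, 0 genes of any of these lists passed.

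Of the 7 partner factors of SRF, 1 rose, 2 fell and 4 did not pass, with a median log2 difference of -0.20. MKL1, the actin-sensing cofactor also known as MRTF-A, was 14.2 and 22.6 in WT, 22.8 and 34.8 in SNAI1_KO_1 and 28.2 and 40.7 in SNAI1_KO_2 and rose by 0.75 ± 0.063 (limma, adjusted p = 0.00117). MYOCD (myocardin), the cofactor of cardiac and smooth muscle, was 8.81 and 9.02 in WT, 4.01 and 4.497 in SNAI1_KO_1 and 4.52 and 4.04 in SNAI1_KO_2 (log2 difference -0.91 ± 0.10, adjusted p = 0.0031, limma). ELK3, a ternary complex factor that competes with these cofactors for SRF, also fell (-0.53 ± 0.084, adjusted p = 0.00878, limma), a call that was lost when the first table's WT library was left out (limma, adjusted p = 0.0826). MKL2, the close relative of MKL1, was 9.30 and 10.03 in WT and 6.42 to 8.89 in the knockout groups and did not pass.

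Other smooth muscle and SRF-linked genes numbered 13, of which 9 were in the fit. Of these 6 rose, 0 fell and 3 did not pass, and the median was 0.68. ANKRD1, a stretch-responsive muscle ankyrin protein, was 7.81 and 6.53 in WT, 165 and 107 in SNAI1_KO_1 and 164 and 124 in SNAI1_KO_2 and rose by 4.09 ± 0.088 (limma, adjusted p = 0.000139), a difference of the size of that of ACTA1. CSRP1, a LIM protein of smooth muscle, rose by 1.56 ± 0.11 (limma, adjusted p = 0.000742), from 15.3 and 22.1 FPKM in WT. MICAL2, an enzyme that oxidises actin, rose by 1.30 ± 0.094, and PDLIM5, a LIM protein of actin bundles, by 0.90 ± 0.058. Below the level of the fit were LMOD1, DES, SYNPO2 and KCNMB1, markers of mature smooth muscle or muscle.

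Of 16 genes of branched nucleation, 5 rose, 0 fell and 11 did not pass, with a median of 0.03. They were ACTR3 (0.59 ± 0.086), a core subunit of the Arp2/3 complex, ARPC5 (0.47 ± 0.076), a further subunit, NCKAP1 (0.34 ± 0.059) and BRK1 (0.17 ± 0.044) of the WAVE complex, and CTTN (0.21 ± 0.058), or cortactin, which holds branches. The call of BRK1 was lost on leaving out any of the 6 libraries, that of CTTN on leaving out any of 5, and those of ARPC5 and NCKAP1 without either WT library. The partner subunit ACTR2 was 87.6 and 78.3 in WT and 75.5 to 91.5 in the knockout groups and did not pass.

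Of 17 genes of monomer binding, capping and severing, 6 rose, 3 fell and 8 did not pass (median 0.15). TMSB4X, a major store of free actin monomers, was 1563 and 1502 in WT, 2258 and 2302 in SNAI1_KO_1 and 2338 and 2359 in SNAI1_KO_2 and rose by 0.59 ± 0.033 (limma, adjusted p = 0.000394). COTL1, a small filament-binding protein, rose by 1.08 ± 0.10, and CAP2, a monomer-recycling protein of muscle, by 0.48 ± 0.065. TMOD1, which caps the slow-growing end of filaments in muscle and red blood cells, had the largest fall of the lists, with 14.5 and 15.5 in WT, 6.55 and 5.46 in SNAI1_KO_1 and 5.98 and 3.78 in SNAI1_KO_2 (log2 difference -1.33 ± 0.14, limma, adjusted p = 0.00266). The adjusted p of CAP2 was 0.0507 when the second table's WT library was left out (limma).

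Of 13 other cross-linkers and cortical linkers, 9 rose, 2 fell and 2 did not pass, with a median of 0.50. The largest rises were those of proteins best known from microvilli and blood cells and not from muscle. VIL1 (villin), of epithelial microvilli, was 2.00 and 6.67 in WT, 54.8 and 44.5 in SNAI1_KO_1 and 57.0 and 49.9 in SNAI1_KO_2 and rose by 3.45 ± 0.35 (limma, adjusted p = 0.00218). LCP1 (plastin of white blood cells) was 3.73 and 3.71 in WT, 25.6 and 19.5 in SNAI1_KO_1 and 22.8 and 19.6 in SNAI1_KO_2 and rose by 2.27 ± 0.10 (limma, adjusted p = 0.000243). PLS1, the intestinal plastin, rose by 1.69 ± 0.16 and ESPN (espin) by 1.65 ± 0.11.

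Of 19 other adhesion plaque genes, 18 were listed and 17 were in the fit. Of these 11 rose, 1 fell and 5 did not pass, and the median was 0.35. LIMS2, which binds integrin-linked kinase, rose by 1.78 ± 0.12 (limma, adjusted p = 0.000634), from 1.17 and 2.09 FPKM in WT. TES (testin) rose by 1.43 ± 0.068 and NEXN (nexilin), an actin-binding protein of muscle, by 1.34 ± 0.15.

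Of 12 other myosins, 11 were in the fit. Of these 4 rose, 1 fell and 6 did not pass, and the median log2 difference was 0.24. MYO6, which moves towards the slow-growing end, rose by 1.35 ± 0.10, and the membrane-linked class I myosins MYO1E and MYO1C rose by 1.12 ± 0.12 and 1.03 ± 0.073.

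Of 24 sarcomere genes, which serve striated muscle, only 8 were in the fit. Of these 4 rose, 1 fell and 3 did not pass, and the median was 0.81. TNNT2, the cardiac troponin T, was 1.18 and 1.32 in WT, 5.04 and 5.43 in SNAI1_KO_1 and 4.49 and 6.55 in SNAI1_KO_2 and rose by 1.49 ± 0.13 (limma, adjusted p = 0.00138). NEBL (nebulette) was 2.57 and 2.24 in WT, 5.63 and 5.52 in SNAI1_KO_1 and 6.03 and 5.91 in SNAI1_KO_2 and rose by 0.99 ± 0.10. TNNC2 rose by 1.04 ± 0.15, but was in the fit only through the knockout libraries, with 0.489 and 0.248 in WT and 1.22 to 2.58 in the knockout groups, and its call was lost when the first table's WT library was left out. MYL4, the atrial essential light chain, was 24.6 and 21.6 in WT, 14.9 and 8.18 in SNAI1_KO_1 and 13.97 and 7.89 in SNAI1_KO_2 (log2 difference -1.03 ± 0.15, limma, adjusted p = 0.00606). Among the heavy chains of the sarcomere, MYH6 and MYH7 were at or near 0 in all libraries. MYH3 was 0.845 and 0.499 in WT and 0.407 to 1.48 in the knockout groups, below the level of the fit.

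**Figure D5:**
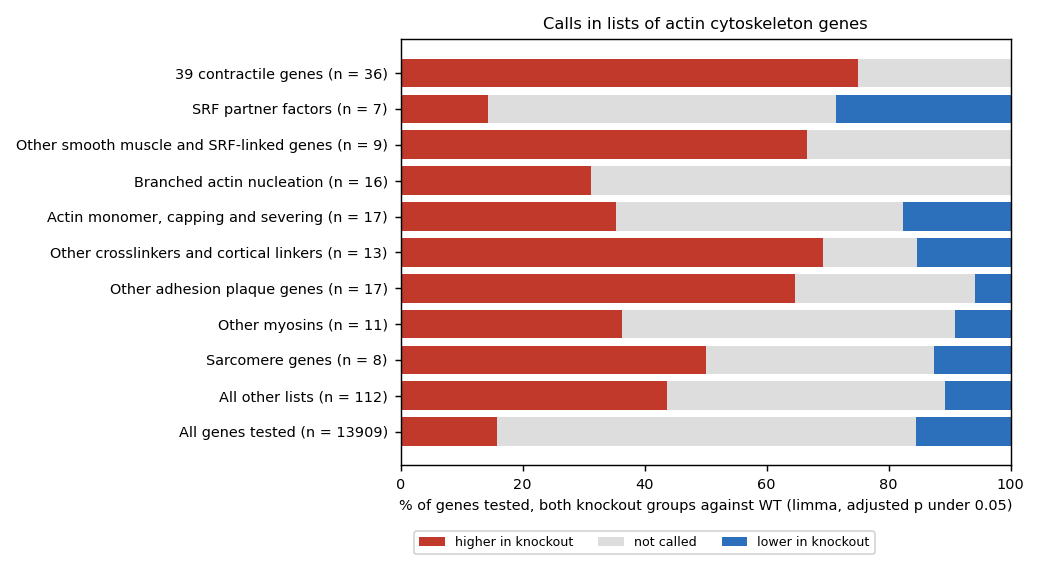
Percent of the genes in the fit that were higher (red), lower (blue) or not past the threshold (grey) for both knockout groups against WT, for the 39 genes, the other lists and all genes, with the number in the fit in brackets. The cross-linkers, the adhesion plaque genes and the smooth muscle genes have the longest red bars after the 39 genes, and all genes have 15.8% red and 15.4% blue. The 39 genes were picked on this contrast, so their bar is a description.

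Markers of the cell types that could bear on these levels were set beside them. The 5 mesoderm markers, T, MIXL1, EOMES, MESP1 and APLNR, were all detected and summed to 1329 to 1350 FPKM in WT and 978 to 1074 FPKM in the knockout libraries. T (brachyury) rose (log2 difference 2.72, limma), while EOMES, MESP1 and APLNR fell and MIXL1 did not pass. The 3 markers of pluripotent cells (POU5F1, NANOG and SOX2) summed to 492 to 638 FPKM in WT and 695 to 1036 FPKM in the knockout libraries. Most of this sum was POU5F1, which rose by 0.57 ± 0.042 on the log2 scale (limma). NANOG rose by 1.14 ± 0.16 (limma), with 6.58 and 7.16 in WT and 11.7 to 19.2 in the knockout groups, and its adjusted p was 0.0737 when the first table's WT library was left out (limma). SOX2 was at 0.281 to 2.18 FPKM and did not pass. Of the 6 cardiomyocyte markers, 3 had a mean of at least 1 FPKM, and the 6 summed to 15.1 to 31.7 FPKM in WT and 14.02 to 18.2 FPKM in the knockout libraries. TNNT2 rose, as given above, and TNNI3 was 3.27 and 1.43 in WT and 4.29 to 4.67 in the knockout groups (log2 difference 0.76 ± 0.22), above WT in each table, and did not pass (adjusted p = 0.0519, limma). MYL2 was at 0 in all 6 libraries and MYH7 in 5, and MYH6 was at most 0.0306 FPKM. NKX2-5, an early cardiac factor and the largest part of the sum in WT, was 10.6 and 28.9 in WT and 5.22 to 7.13 in the knockout groups and fell (-1.42, limma), with an adjusted p of 0.0524 when the second table's SNAI1_KO_2 library was left out (limma). For MESP1 it was 0.0594 when the first table's WT library was left out (limma).

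Of the 5 smooth muscle markers, 2 reached a mean of 1 FPKM, MYOCD and SMTN, and the sum was 20.4 to 24.2 FPKM in WT and 12.1 to 16.5 FPKM in the knockout libraries. MYOCD fell, as given above, while SMTN was 11.2 and 14.9 in WT and 6.83 to 11.5 in the knockout groups and did not pass. The others, MYH11, LMOD1 and DES, were at most 0.545 FPKM and were not in the fit. Each was above WT of the same table in every knockout library, at levels too low to read much from. For DES this was by as little as 0.242 in SNAI1_KO_2 against 0.234 in WT (first table), and its groups overlapped across the tables. Of the 5 skeletal muscle markers, only CKM (creatine kinase) reached it, and it rose by 1.45, with 1.12 and 1.10 in WT and 3.17 to 6.39 in the knockout groups. MYOD1 was at 0 in the knockout libraries and at most 0.0274 FPKM in WT, and the sum of the list was 2.26 to 2.38 FPKM in WT and 4.002 to 7.30 FPKM in the knockout libraries. The 6 fibroblast markers summed to 91.7 to 117 FPKM in WT and 162 to 250 FPKM in the knockout libraries, mostly through THY1, which rose by 1.19 (limma). POSTN fell (-1.09, limma), and COL1A1 and PDGFRB did not pass. COL3A1 was at most 0.292 FPKM, and DCN was at 0 in 5 of the 6 libraries. The part of these cell types in the levels of the 39 genes was not tested.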

How the data were processed

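RNA-seq was analysed for 6 libraries of H1 cells at day 2, in 3 groups of 2 libraries (WT, SNAI1_KO_1 and SNAI1_KO_2) taken from the sample titles. The authors deposited FPKM values per gene symbol in a pair of tables, each with 1 library of every group, and named the unit only in a heading line of the second. The submitters' processing notes list BWA, Bowtie, RSEM and build hg19, without versions or roles. Annotation and use of strand are not given in the sources used here. FPKM values hold no read totals, so depth cannot be told from them and no counting error is given. Per-sample columns that were not used numbered 0. The first table held 38100 symbols and the second 58324. Symbols listed more than once (94 and 340) were left out, which left 37803 found in both.

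The 39 genes and all other gene lists were chosen with earlier results of these data known. Genes with a mean of at least 1 FPKM (13909) were fitted on log2(FPKM + 1) with limma 3.58.1 in R 4.3.3, with group means, a term for the table and a mean-variance trend (degrees of freedom: 2 residual, 3.34 prior). Two-sided p-values were corrected by Benjamini-Hochberg over all genes in the fit, with a threshold of 0.05. How the tables were normalized is not given in the sources used here. Libraries of a table were taken as paired because each table holds 1 library of every group and the table-to-table differences of the groups correlated across genes with r of 0.616, 0.666 and 0.676. Of the other lists, up to 4 genes past the threshold with the largest log2 difference are named, together with genes singled out after their values were seen (such as BRK1 and those given as not passing). Promoter windows came from RefSeq (GRCh38.p14), matched by symbol, and were searched in Python 3.11.15. Some genes that the totals count are not reported here. The fit was tested on simulated data in which 200 of 13909 genes changed by 2 on the log2 scale. Of these, 98% were recovered, and 4.39% of the genes called there had not been changed. This does not bear on smaller differences, or on data in which as many genes pass as here (31.3%). Alternatives were no term for the table, pseudocounts of 0.1 and 10, no filter, a mean of at least 5 FPKM, scaling to equal library sums or by median ratios, quantile normalization, a minimum log2 difference of 1, a fit without the trend, and leaving out each library.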

Additional observations from a re-analysis of the deposited data

How the results depend on the processing

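Of the 39 genes, 27 (both knockout groups against WT), 26 (SNAI1_KO_1) and 26 (SNAI1_KO_2) were past the threshold. Without the replicate block, that is without pairing libraries by table, it was 12, 9 and 10 (7.66%, 4.14% and 5.02% of all genes). With no filter on low values it was 7, 0 and 0 (732 of all 37803 genes for both groups, and 0 for each group alone). At a log2 difference of at least 1 it was 8, 7 and 9 (7.18%, 6.83% and 7.58% of all genes). For the 112 other actin cytoskeleton genes the count was 61, and it was 24, 14 and 21 under the same settings. The cause was not tested. Leaving out each library in turn gave 22 to 27, 18 to 24 and 20 to 26 of the 39 genes and 42 to 55 of the others. SNAI1_KO_2 against SNAI1_KO_1 gave 0 under every setting tried. All other settings kept the counts within 1.5 times, and 0 of the 39 genes were past the threshold with lower values under any of them. Of 575 alternative values of single genes among the 39, 495 kept direction and call, 69 lost the call, 1 gained it and 10 reversed, all in genes not past the threshold. FHL1 was -0.020 with a pseudocount of 10 and with quantile normalization, and -0.40 without WT, -0.11 without SNAI1_KO_1 and -0.089 without SNAI1_KO_2 of the second table, its range over left-out libraries being -0.40 to 0.40. PFN1 was -0.00341 with quantile normalization, -0.022 without WT and -0.019 without SNAI1_KO_1 of the first table, and -0.00476 without SNAI1_KO_2 of the second (range -0.022 to 0.036). ACTA2 was 0.026 without WT of the second table (range -0.31 to 0.026). Without a library, FLNC, SRF, TPM3, TPM4 and FLNA lost their calls in at least 1 case, each of them without WT of the first table. Of 461 values of the 29 named genes of other lists, 57 lost the call and 0 reversed, as did 26 and 0 of 174 values of 11 markers and other genes singled out, and 4 and 0 of 16 of SNAI1. The unknown depth limits genes near 1 FPKM, such as ACTA2 and TGM2, and levels split between near-identical copies.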

Other observations

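Symbols named as pseudogenes of the 39 genes, which could take fragments of their parent genes, numbered 69, and 6 of them had a mean of at least 1 FPKM. ACTBP2, named for ACTB, was 0.637 and 9.76 in WT, 1.42 and 10.3 in SNAI1_KO_1 and 0.788 and 12.9 in SNAI1_KO_2, far apart between the tables in every group. ACTG1P20 was 1.44 and 1.41 in WT and 0.734 to 1.64 in the knockout groups, and TPM3P9 was 3.82 and 4.32 in WT and 2.08 to 3.76 in the knockout groups. PFN1P1 was 1.58 and 6.70 in WT, 4.58 and 10.7 in SNAI1_KO_1 and 2.54 and 11.9 in SNAI1_KO_2 (log2 difference 0.73 ± 0.18, limma, adjusted p = 0.032), while PFN1P8 was 2.26 and 3.26 in WT and 1.40 to 3.25 in the knockout groups and did not pass. TAGLN2P1 was 0.260 and 0.340 in WT and 0.402 to 2.60 in the knockout groups and did not pass. Each was low beside its parent gene.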
